A study of Daphnia magna with 15 samples.

Results

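The comparison described here asks whether the waterflea Daphnia magna answered a supplement of eicosapentaenoic acid (EPA) differently on a green algal and on a cyanobacterial basal food. It was taken as the interaction of basal food and supplement, that is the difference between GA + EPA and GA minus the difference between CY + EPA and CY, on a log2 scale. It rested on 12 of the 15 libraries of the series, 3 per group, and was estimated for every gene that passed a filter on low counts. A positive value means that the EPA difference was higher on GA ("GA side higher"), and a negative value that it was higher on CY ("CY side higher"). Because a difference of 2 differences was estimated, the same value can come from unequal movements in 1 direction or from opposite movements, and the levels on both foods are given for the genes described in full.

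All animals belonged to 1 clone, P132.85, were kept at 15 °C from birth, reproduced parthenogenetically and were sampled as mothers with their first clutch of eggs in the brood pouch. The GA groups fed on a green alga and the CY groups on a cyanobacterium, each without or with EPA. By the study's methods the sequenced GA animals received liposomes without EPA, which the labels do not mention, and both CY groups received alpha linoleic acid and cholesterol in addition. The basal food and these additions therefore cannot be told apart in the interaction. The 3 CRY libraries, from animals fed another food, took no part in it. Each library was a pool of whole animals, given as 3 specimens in one label and as 5 in the protocol. The p-values measure the spread between such pools, and in whole animals fewer cells of a type and less RNA per cell cannot be told apart.

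EPA is a long-chain omega-3 polyunsaturated fatty acid that cyanobacteria lack and that many green algae hold at most in traces. Animals build it into membrane phospholipids, load it into eggs with the yolk lipoprotein vitellogenin, and convert it into eicosanoids, which are short-range lipid signals. Daphnia moult and lay a clutch in the same cycle, so that transcripts for cuticle and yolk follow the stage of an adult within that cycle.

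Summed estimated counts per library ranged from 18062681 to 22287959, and libraries of a group correlated at r = 0.954 to 0.99 over genes on the log2 scale. Replicate 1 of GA + EPA and replicate 1 of CY differed most from the other libraries of their groups, with chi-square values per degree of freedom of 88.5 to 140 and 68.7 to 125 against 9.2 to 11.7 among the GA libraries. Replicate 1 of GA + EPA held the least serine protease transcript of its group (7218 CPM, counts scaled to a common library size, summed over the list, against 15950 and 20200), and replicate 1 of CY held the most yolk precursor transcript of all libraries. Replicate 2 of CY + EPA also stood apart from its group, at 46.7 and 66.1 against 13.9 between replicates 1 and 3. It held the least serine protease transcript of all libraries, 5625 CPM. Replicates 2 and 3 of CY differed by 45.1.

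Of 14816 genes tested, edgeR's quasi-likelihood test called 0 (0% of those tested) at a Benjamini-Hochberg adjusted p of at most 0.01. The smallest adjusted p was 0.0784 and was shared by 5 genes. An unadjusted p of 0.05 or less was reached by 1599 genes (10.8%), where 741 would fall by an equal spread of p-values, and one of 0.01 or less by 431 genes (2.91%), where 148 would fall. The latter is called the nominal limit below. Of the 431 genes, 266 had the GA side higher (1.80% of those tested) and 165 the CY side higher (1.11%). DESeq2 called 44 of the 13067 genes for which it gave an adjusted p (0.337%), 25 of them with the GA side higher, and all 44 were among the 431. No gene passed edgeR's adjusted threshold, so the genes below are described by their levels and their unadjusted p, and DESeq2's call is named where there was one.

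**Figure D1:**
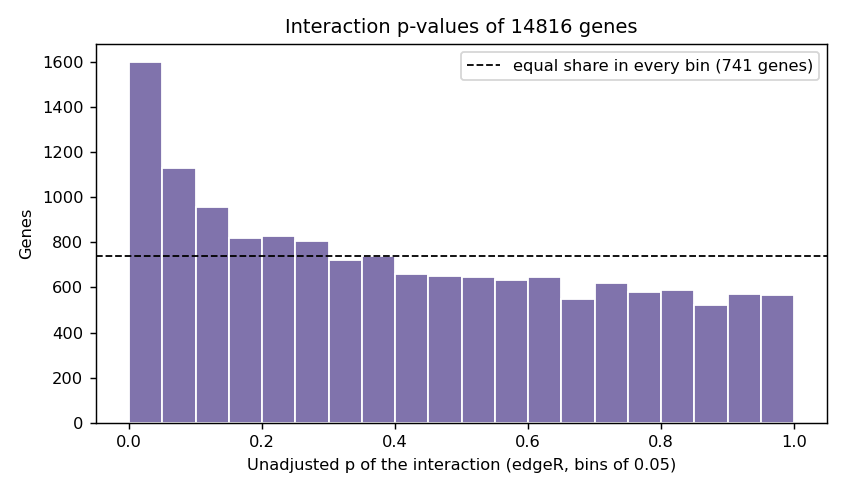
Histogram of the unadjusted edgeR p-values of the interaction over 14816 genes, in bins of 0.05, with a dashed line at the 741 genes that an equal share would put in each bin. The first bin holds 1599 genes and the last 565.

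The split between the directions differed between edgeR on counts and limma on FPKM, which differ in scale, in library scaling and in the test. With limma on log2(FPKM + 0.1) the GA side was higher in 40.8% of the 321 genes within the nominal limit, and on log2(FPKM + 1) in 38.4% of 359, against 61.7% of the 431 from counts. Every one of the 431 genes kept its sign on both FPKM scales. Over all genes tested, 7299 values were positive and 7517 negative, with a median of -0.01. The standard error of a value had a median of 0.25 and ran from 0.12 at the 10th percentile of genes to 0.70 at the 90th, which limits what 3 pools per group can show.

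Among the 431 genes the EPA differences on the 2 foods had opposite signs in 410 (95.1%), against 51.9% of all genes tested. The difference on GA was the larger in 347 (80.5%, against 64.3%), with a median size of 0.54 on GA and 0.23 on CY. With EPA the levels on the 2 foods were closer than without it in 279 genes (64.7%, against 57.3% of all), and in 291 (67.5%, against 32.9%) the order of the foods turned. These shares describe the genes and test nothing, since the same values chose them. In 108 of the 431 the libraries with and without EPA were fully separated on both foods in opposite directions, which held for 156 of all genes tested (1.05%), and in 0 were they separated in the same direction on both, which held for 97 of all genes (0.655%). Just inside the limit stood KZS04067.1, an uncharacterised protein, with a value of -0.76, and just outside it KZS17311.1, the large-subunit ribosomal protein L4, with -0.38.

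**Figure D2:**
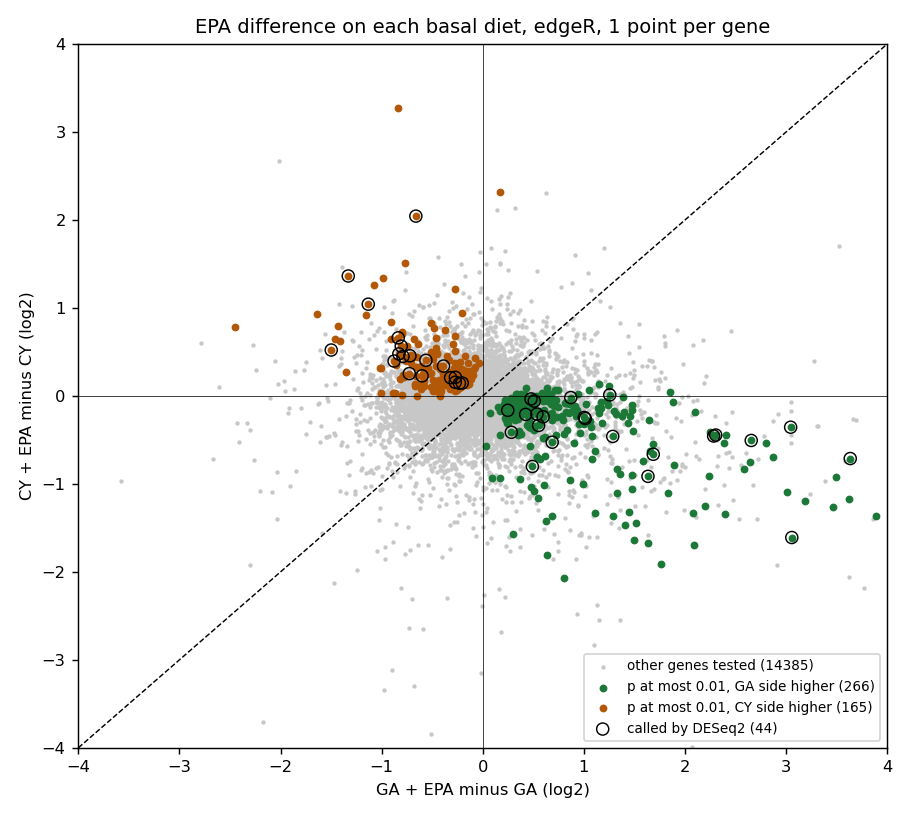
Each point is 1 gene, placed by its fitted log2 difference between GA + EPA and GA (x axis) and between CY + EPA and CY (y axis); 19 genes lie outside the axes, which end at 4. The 266 genes with the GA side higher (green) lie below the dashed line of equal differences, the 165 with the CY side higher (orange) above it, and circles mark the 44 genes called by DESeq2.

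Sestrin KZS01477.1, at 81 to 1613 of scaffold LRGB01006778.1 in assembly 2.4, had the smallest p of all genes with the GA side higher. Sestrins are stress-induced proteins that hold back the growth kinase complex TORC1 in flies and mammals. Its level was 29.6, 26.7 and 31.8 CPM in the GA libraries and 66.3, 52.2 and 58.2 in GA + EPA, and 35.7, 37.5 and 44.8 CPM in CY and 32.4, 36.4 and 30.8 in CY + EPA. The GA + EPA libraries stood above all 9 others, while the CY and CY + EPA libraries overlapped. The interaction was 1.25 (SE 0.17, edgeR adjusted p = 0.0784), DESeq2 called it, and its unadjusted p stayed at or under 7.27e-05 whichever library was left out. The only other gene annotated as a sestrin, KZS11975.1, named here after its value was seen, had an interaction of 1.10 (unadjusted p = 0.00112).

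**Figure D3:**
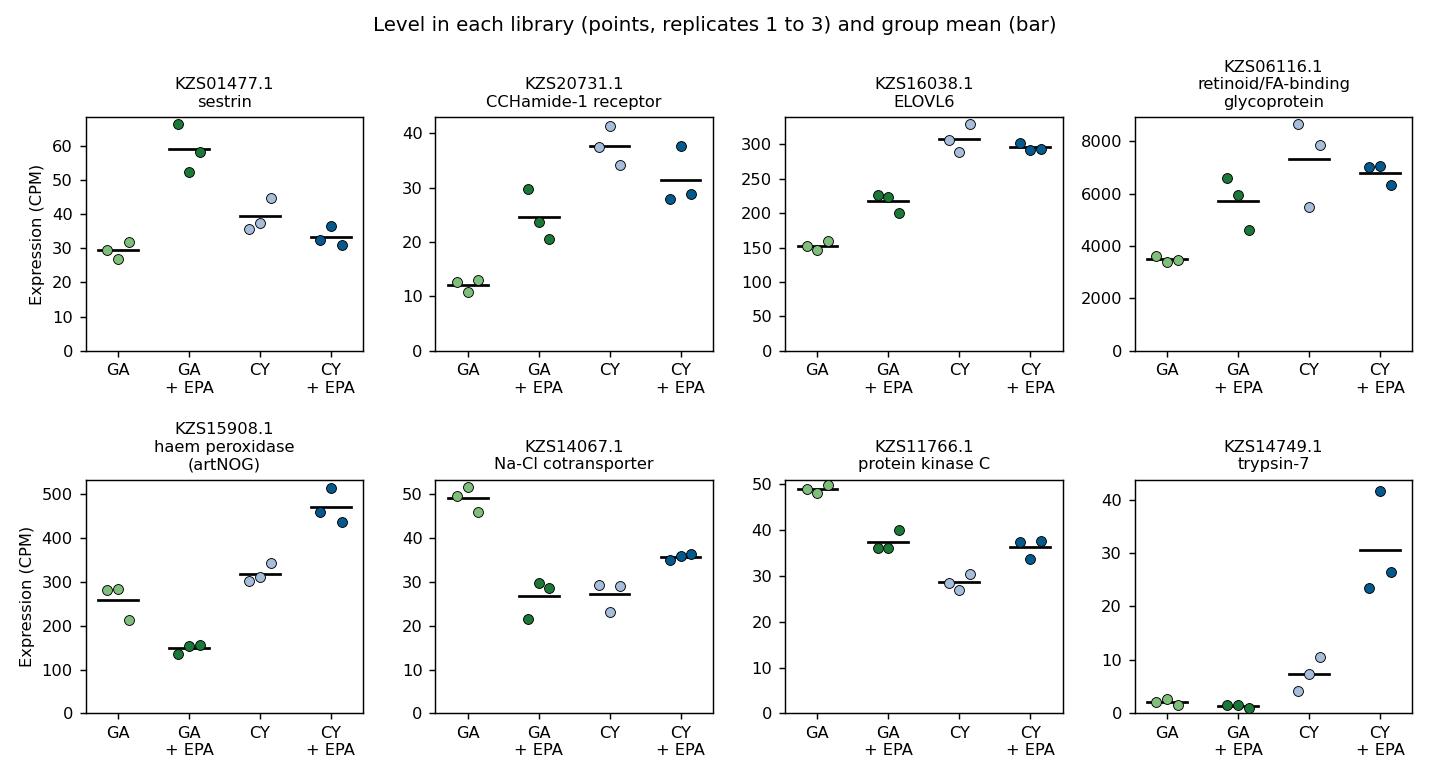
Level in CPM of 8 genes in each of the 12 libraries (points) with the mean of each group (bar), the upper row with the GA side higher and the lower row with the CY side higher. Sestrin stands at 52.2 to 66.3 CPM in GA + EPA and at most 44.8 elsewhere, and the haem peroxidase KZS15908.1 at 136 to 155 in GA + EPA and 437 to 513 in CY + EPA.

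The receptor KZS20731.1, annotated as that of CCHamide-1, a gut and brain neuropeptide of insects, had 12.7, 10.8 and 13 CPM in GA and 29.8, 23.6 and 20.5 in GA + EPA. On CY it had 37.5, 41.4 and 34.2 CPM without and 27.9, 37.7 and 28.9 with EPA, again with overlap. Its interaction was 1.27 (SE 0.22, edgeR adjusted p = 0.189), and DESeq2 called it. The ubiquitin-conjugating enzyme E2 Q2, KZS00601.1, was fully separated on both foods, at 10.5 to 12.4 CPM in GA, 15.1 to 17.4 in GA + EPA, 13.8 to 17.7 in CY and 12.2 to 12.9 in CY + EPA, with an interaction of 0.89. The ABC transporter KZS03178.1 (sub-family C member 4, which in mammals exports prostaglandins among other anions) was separated likewise, at 47.2 to 52.9, 56.5 to 65, 57.3 to 67.1 and 43.5 to 50.9 CPM in the same order of groups, with 0.70. Its estimated counts were not whole numbers in all 12 libraries, so that it shares reads with similar genes.

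Uncharacterised proteins made up 164 of the 431 genes (38.1%, against 40.6% of all tested), and 5 of the 10 leading genes with the GA side higher. KZS16636.1 had 2.23, 1.69 and 2.34 CPM in GA and 4.39, 5.93 and 5.03 in GA + EPA, and 5.62, 6.78 and 6.69 in CY and 4.94, 5.24 and 3.68 in CY + EPA, an interaction of 1.75. KZS10970.1, whose artNOG orthologue group (an arthropod set) is described as a ligand-gated ion channel, had the largest value of the 10, 2.55, at levels of 0.477 to 5.13 CPM. KZS05353.1, with a trypsin domain by artNOG, KZS12696.1, with a retinin-like description, and KZS05194.1, with a Mastermind-like domain, had 0.74, 1.10 and 0.63. Of these 5 DESeq2 called all but KZS12696.1.

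The lipid genes led with elongase KZS16038.1 (ELOVL6), which in mammals lengthens saturated and monounsaturated fatty acids. It had 152, 146 and 160 CPM in GA and 227, 224 and 200 in GA + EPA, and 306, 289 and 330 CPM in CY and 302, 292 and 294 in CY + EPA. With EPA on GA the level thus lay between that of GA and that of both CY groups, which overlapped each other. The interaction was 0.57 (SE 0.11, edgeR adjusted p = 0.233), and DESeq2 called it. The retinoid- and fatty acid-binding glycoprotein KZS06116.1, whose fly counterpart is the lipid carrier apolipophorin of the haemolymph, was also higher with EPA on GA in separated libraries, at far higher levels: 3400 to 3630 CPM in GA, 4630 to 6610 in GA + EPA, 5490 to 8650 in CY and 6350 to 7050 in CY + EPA. Its interaction of 0.82 (unadjusted p = 0.00617) stood beside CY libraries that spanned the range of CY + EPA. In the list of fatty acid synthesis, elongation, desaturation and binding, 4 of 44 tested genes stood within the nominal limit (against 2.91% of all genes), all with the GA side higher (1.80%), and the list's median was 0.19 against -0.01 over all genes. Without replicate 1 of CY the median was 0.11, and the number within the limit ran from 1, when any 1 of 6 libraries was left out (replicates 1 and 2 of GA and of GA + EPA, replicate 3 of CY and of CY + EPA), to 7 without replicate 3 of GA + EPA.

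Yolk precursors were the list in which the largest share of genes stood at a small p. All 13 genes annotated as vitellogenin fused with superoxide dismutase passed the filter, all 13 had the GA side higher, with values of 1.30 to 2.92 and a median of 1.68, and 11 stood within the nominal limit (against 2.91% of all genes). DESeq2 called 2 of them, KZS00833.1 (2.74, and 1.80 without replicate 1 of CY and of GA + EPA) and KZS00271.1 (2.75), and edgeR's adjusted p was 0.289 for each of these. KZS00271.1 had 14.4, 40.8 and 50.1 CPM in GA and 285, 139 and 95.4 in GA + EPA, and 526 to 1080 CPM in CY and 515 to 635 in CY + EPA. The 13 entries are mostly fragments on small scaffolds, and 8 of them share reads with others, so they are not 13 separate observations. A pair lies side by side in assembly 2.4 of the genome on scaffold LRGB01003325.1, KZS03198.1 at 54818 to 61798 and KZS03199.1 at 64441 to 70034, with values of 2.92 and 1.51.

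Summed over the 13 genes, yolk precursor transcript reached 8679, 14310 and 13130 CPM in GA and 45110, 26320 and 24470 in GA + EPA. On CY it reached 148400, 67180 and 89680 CPM, and with EPA 95790, 76660 and 87570. The GA + EPA libraries lay above all GA libraries and below all CY libraries, whereas CY and CY + EPA overlapped. The highest library of GA + EPA and the highest of CY are the 2 that differed most from their groups. Without both, the median value of the list was 0.98, all 13 values were positive and 7 of the 13 stood within the nominal limit, and without 1 library at a time the median ranged from 1.27 (without replicate 1 of CY) to 1.90 (without replicate 2 of CY). The study's text lists 3 further transcripts with a vitellogenin description in artNOG, all sharing reads in the 12 libraries, and their values were 0.78 (KZS21011.1), 0.63 (KZS21012.1) and 0.65 (KZS06496.1), the last pair within the nominal limit.

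**Figure D4:**
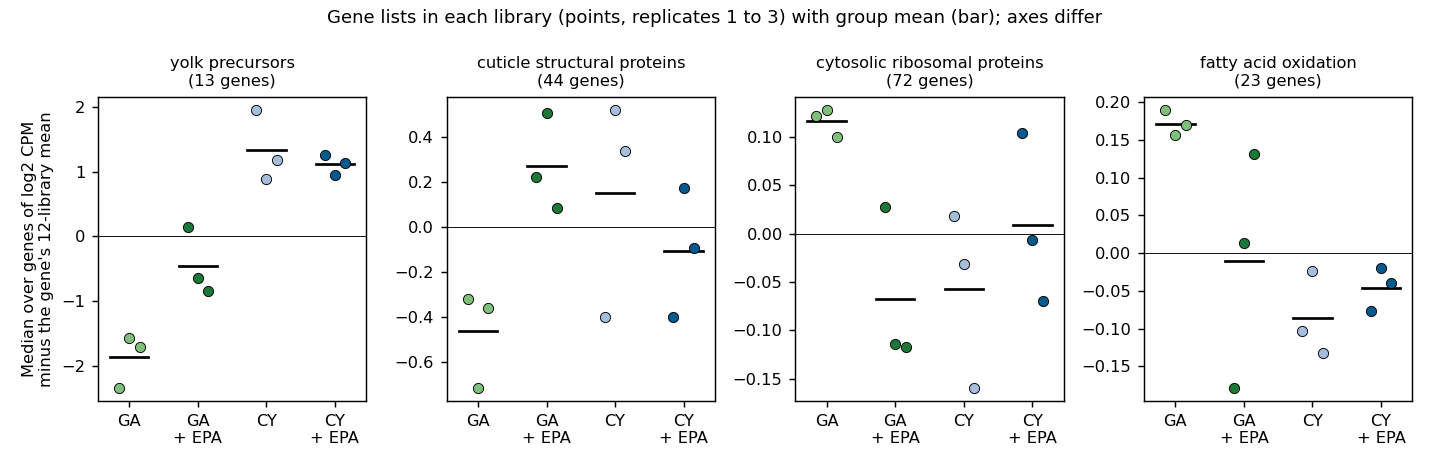
For 4 gene lists, each point is 1 library: the median over the list's genes of log2 CPM minus that gene's mean over the 12 libraries, with bars for group means and a separate scale per panel. Yolk precursors run from -2.34 to -1.57 in GA, -0.85 to 0.14 in GA + EPA and 0.89 to 1.95 in the CY groups, and ribosomal proteins from 0.10 to 0.13 in GA and -0.12 to 0.03 in GA + EPA.

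Cuticle structural proteins had a median of 1.85. Of 76 annotated genes 44 passed the filter, and 41 of these had the GA side higher. Within the nominal limit stood 7 of the 44 (against 2.91% of all genes), all 7 with the GA side higher (1.80%). The filter did not ask for counts in every library, so low genes of the list could pass through the groups in which they were high. KZS18516.1 had 0.849, 0.821 and 0.78 CPM in GA and 3.39, 6.02 and 2.2 in GA + EPA, and 1.04, 2.47 and 5.35 in CY and 1.27, 2.11 and 1.3 in CY + EPA, an interaction of 3.15. KZS14015.1 had 2.23, at levels of 0.616 to 4.49 CPM. The number of genes of the list within the nominal limit moved with single libraries, from 2 when any 1 of 5 libraries was left out (replicate 2 of GA, of GA + EPA or of CY, replicate 3 of CY, or replicate 1 of CY + EPA) to 17 without replicate 1 of CY, in which the list stood at -0.40 against 0.52 and 0.34 in the other CY libraries. With the filter at 10 counts in every library the median was 0.68 over 28 genes. The list of chitin synthesis and turnover had a median of -0.18, and 1 of 39, the peritrophic membrane protein peritrophin-44 (KZS03171.1, 2.53), stood within the nominal limit (against 2.91% of all genes). The sign of this median turned with single libraries, to 0.15 without replicate 1 of GA + EPA, 0.03 without replicate 3 of CY and 0.31 without replicate 3 of CY + EPA.

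Extracellular matrix genes had a median of 0.42, with 16 of 22 values positive, and of 0.25 without replicate 2 of GA + EPA or 0.28 without replicate 3. Laminin subunit beta-1 (KZS17228.1), a basement membrane protein, had 173 to 207 CPM in GA, 235 to 253 in GA + EPA, 331 to 362 in CY and 261 to 348 in CY + EPA, an interaction of 0.51. The collagen KZS03231.1 had the largest value among the named genes, 8.34 (SE 2.13), but it rested on 109 CPM in replicate 1 of GA + EPA and 30.2 in replicate 1 of CY, against 0.478 to 4.25 in the other 10 libraries. Leaving out replicate 1 of GA + EPA gave 4.75, leaving out replicate 1 of CY gave 6.43, and leaving out both gave 2.86. Among 22 haem peroxidases tested, 2 stood within the nominal limit (against 2.91% of all genes). Both are peroxinectins, cell adhesion proteins first described in crayfish blood cells, KZS13261.1 with 0.87 and KZS05807.1 with 1.28.

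The gene with the smallest p of all also carries an animal haem peroxidase description in artNOG but is annotated as uncharacterised. The study's text names an animal haem peroxidase, by product only, among genes expressed most on CY with EPA. It describes their regulation as contrasting between the basal foods. KZS15908.1 was taken as the match, which is not certain. KZS15908.1, at 218 to 2575 of scaffold LRGB01000782.1, had 281, 284 and 212 CPM in GA and 136, 154 and 155 in GA + EPA, and 301, 310 and 342 CPM in CY and 460, 513 and 437 in CY + EPA. The libraries with and without EPA were separated on both foods, lower with EPA on GA and higher with EPA on CY. The interaction was -1.37 (SE 0.17, edgeR adjusted p = 0.0784), and DESeq2 called it. Leaving out single libraries moved it between -1.50 and -1.30. Its sign was thus opposite to that of both peroxinectins.

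Ion transporters and kinases followed among the genes with the CY side higher. The bumetanide-sensitive sodium-chloride cotransporter KZS14067.1, which carries salt into cells, had 49.5, 51.7 and 45.9 CPM in GA and 21.6, 29.8 and 28.7 in GA + EPA, and 29.3, 23.2 and 29 in CY and 34.9, 35.9 and 36.4 in CY + EPA. Its interaction was -1.27 (SE 0.18, edgeR adjusted p = 0.0784). The GA libraries lay above all others, and the remaining groups within 21.6 to 36.4 CPM. The anion exchanger KZS18551.1, which swaps chloride for bicarbonate, had 94.8 to 107 CPM in GA, 61 to 71.7 in GA + EPA, 70.8 to 90.7 in CY and 89.8 to 99.7 in CY + EPA, with -0.83. The protein kinase C gene KZS11766.1, of a family of kinases that membrane lipids activate, had 49, 48 and 49.7 CPM in GA and 36.1, 36.1 and 39.9 in GA + EPA, and 28.4, 26.9 and 30.4 in CY and 37.3, 33.7 and 37.5 in CY + EPA. Its interaction was -0.73 (SE 0.10, edgeR adjusted p = 0.0784), and with EPA the levels on the 2 foods overlapped. DESeq2 called all 3.

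A hormone gene, a gene of RNA modification and one of membrane insertion were also among the leading 10 with the CY side higher. Diuretic hormone 31 (KZS19999.1), a neuropeptide that drives fluid secretion in insects, had 4.74, 4.41 and 4.46 CPM in GA and 2.34, 2.15 and 3.14 in GA + EPA, and 1.86, 1.9 and 1.76 in CY and 3.08, 3.31 and 2.33 in CY + EPA, an interaction of -1.50. The tRNA IPP transferase KZS18958.1, which modifies the base beside the anticodon, had 14.9 to 17.2 CPM in GA, 9.73 to 12.1 in GA + EPA, 8.63 to 9.02 in CY and 11 to 12.1 in CY + EPA, with -0.97. For OXA1L (KZS18276.1), the insertase of the inner mitochondrial membrane, the small value of -0.48 went with a narrow spread, 44.6 to 45.8, 37 to 38, 46.1 to 47.5 and 51.2 to 56.3 CPM in the same order of groups. The uncharacterised KZS21043.1 had -2.02, at 6.63 to 7.91, 2.25 to 3.15, 4.39 to 6.01 and 5.92 to 9.02 CPM, and KZR96029.1, whose counts share reads, had -1.31. DESeq2 called all 5.

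Trypsins and other serine proteases, the main digestive enzymes of the Daphnia gut, stood on both sides. Within the nominal limit were 3 of 51 with the GA side higher (against 1.80% of all genes) and 3 with the CY side higher (1.11%). The list's median of -0.08 turned to 0.08 without replicate 3 of CY + EPA and to 0.07 without replicate 3 of CY. Trypsin-7 KZS14749.1 had 2.15, 2.72 and 1.6 CPM in GA and 1.57, 1.48 and 0.995 in GA + EPA, and 4.26, 7.35 and 10.6 CPM in CY and 23.5, 41.6 and 26.5 in CY + EPA. The groups were separated on both foods, with the larger difference on CY, and its interaction of -2.71 (SE 0.51, edgeR adjusted p = 0.213) was called by DESeq2. A second gene annotated as trypsin-7, KZS14742.1, had 26.7 to 33.2, 19.9 to 23.5, 26 to 44.1 and 49.1 to 63.6 CPM, with -1.12. Its artNOG description is GLECT, not a trypsin domain. Of the list's genes with the GA side higher, the 2 smallest p at a mean of at least 1 CPM belonged to clip-domain serine proteases. This kind is known from insects for activating immune cascades. Their values were 3.56 for KZR98511.1, at 0.626 to 1.8 CPM in GA and 6.5 to 10.4 in GA + EPA, and 0.77 for KZS13284.1. Genes were named from each direction, so the opposite signs of these named genes follow from the naming rule. The CY libraries of KZR98511.1 spread from 20.2 to 146 CPM, the highest in replicate 1, and without that library its interaction was 2.30.

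In 5 lists nearly all values were negative. Of 72 cytosolic ribosomal protein genes tested, 70 had the CY side higher, and the list's median was -0.24. In both directions together, 30 of the 72 had an unadjusted p of 0.05 or less (against 10.8% of all genes). Only 1 of the 70 stood within the nominal limit, RpL23a (KZS07911.1, -0.43, called by DESeq2), with 1250 to 1310 CPM in GA, 1040 to 1090 in GA + EPA, 1100 to 1210 in CY and 1210 to 1350 in CY + EPA. The gene with the opposite sign at that limit, KZS01594.1 (1.18), is annotated as L3 but has a DnaJ domain by artNOG. With this gene, 2 of the 72 stood within the limit (2.78%, against 2.91% of all genes). That count was 9 without replicate 1 of GA + EPA and 5 without replicate 1 of CY. The name search missed KZS07012.1, a 60S ribosomal L22-like gene that DESeq2 called (-0.38 in edgeR), which is named after its value was seen. Of 23 fatty acid oxidation genes 22 were negative, with a median of -0.20, which was -0.12 without replicate 1 of GA + EPA and -0.11, with 19 of 23 negative, without this library and replicate 1 of CY. Carnitine O-palmitoyltransferase (KZS08048.1, -0.35), which moves long acyl chains into mitochondria, had 50.5 to 55.1, 43.4 to 45.7, 49.3 to 52.1 and 53.8 to 56.7 CPM, and shares reads. Of 75 respiratory chain genes 66 were negative, with a median of -0.11 (-0.06 without replicate 1 of CY, and -0.18 without replicate 2), and the succinate dehydrogenase flavoprotein (KZS17456.1) had -0.38. These genes share depth, scaling and the same 12 pools, so the counts of signs are no count of separate observations.

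**Figure D5:**
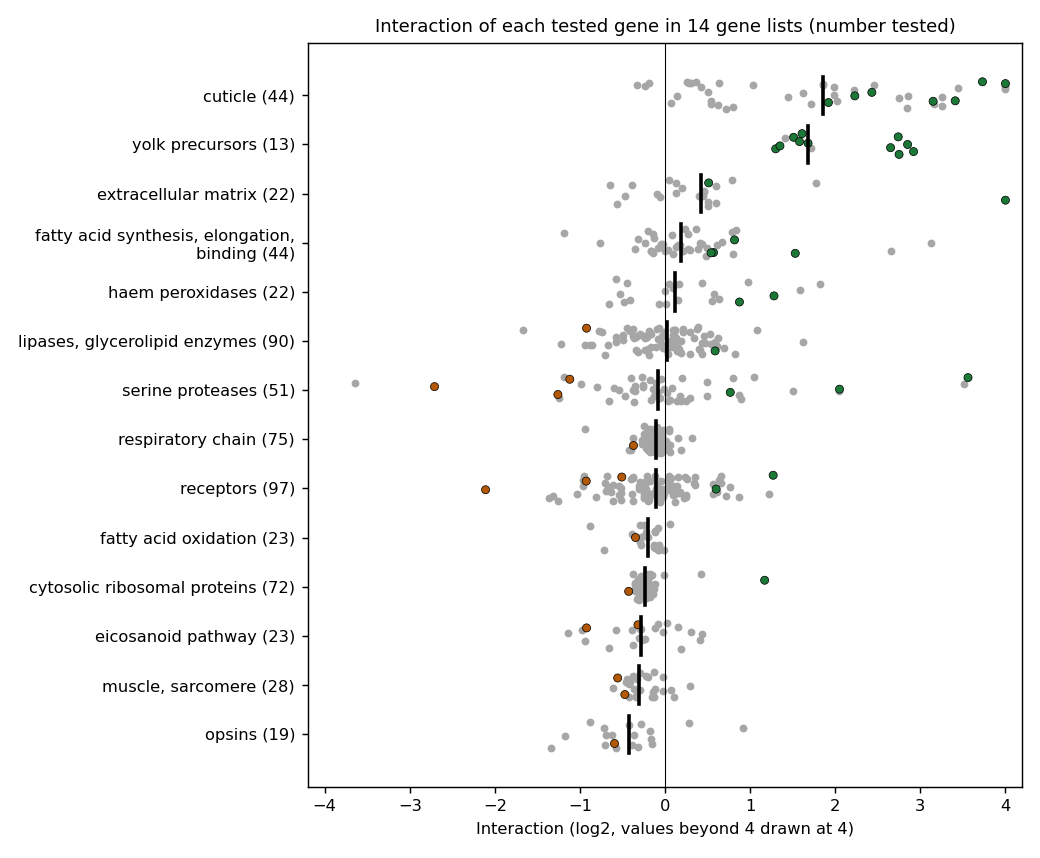
Interaction of every tested gene in 14 gene lists (points, with the number tested), in colour where the unadjusted edgeR p was at most 0.01 (green positive, orange negative), and black bars at list medians; values beyond 4 are drawn at 4. Cuticle and yolk precursors have medians of 1.85 and 1.68, and 70 of 72 ribosomal proteins lie below 0 within a narrow band.

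Muscle genes had 25 of 28 values negative and a median of -0.31, led by 2 genes for troponin I, the calcium switch of the sarcomere, at -0.47 (KZS06534.1) and -0.56 (KZS00815.1). KZS06534.1 had 293 to 322 CPM in GA, 236 to 275 in GA + EPA, 253 to 303 in CY and 300 to 336 in CY + EPA. Of 19 opsin genes, the light receptors of the eye, 17 were negative with a median of -0.43, and the long-wavelength opsin KZS10168.1 (-0.60) was separated on both foods, at 33.7 to 36.9, 26.3 to 31.1, 15.1 to 18.5 and 19.8 to 22.6 CPM. Summed opsin transcript was 1959 to 2169, 1652 to 1823, 841 to 1309 and 1273 to 1557 CPM. Yolk transcript, which reached 148400 CPM, differed between the same groups, and its part in the values of these lists was not tested. Under the other scalings the lists of ribosomal proteins, fatty acid oxidation, respiratory chain, muscle and opsins each kept a negative median, as did yolk precursors and cuticle a positive one.

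Genes of the eicosanoid pathway had a median of -0.28, with 17 of 23 values negative and 2 within the nominal limit (against 2.91% of all genes). Phospholipase A2 (KZS08312.1), which frees polyunsaturated fatty acids from phospholipids, had 19.4, 16 and 16.1 CPM in GA and 13.7, 11 and 13 in GA + EPA, and 3.55, 5.51 and 5.94 in CY and 7.65, 6.98 and 6.22 in CY + EPA. The libraries were separated on both foods in opposite directions, and the interaction was -0.92 (SE 0.26, edgeR adjusted p = 0.309). Prostaglandin reductase 2 (KZS12747.1), which takes part in prostaglandin breakdown in mammals, had -0.32. The list's median was -0.13 without replicate 1 of GA + EPA, -0.50 without replicate 3 of GA + EPA and -0.05 without replicate 1 of CY and replicate 1 of GA + EPA. Among lipases and glycerolipid enzymes a synthase of the phosphatidylglycerol branch (KZS20433.1, 0.59) had 59.8 to 75.1 CPM in GA and 102 to 108 in GA + EPA, beside 165 to 215 in both CY groups.

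Other lists held 1 or a few genes at the limit, which 2.91% of all genes reached. These were 1 of 60 conjugating enzymes, 1 of 56 sterol and sphingolipid genes, 2 of 97 nutrient transporters and 2 of 82 other peptidases. Also there were 1 of 73 replication and cell division genes, 1 of 61 chaperones, 1 of 33 lectins and 2 of 59 splicing genes. The shares of these lists ran from 1.37% to 3.39%, near that of all genes. Transposon-derived and THAP domain genes had 2 of 7. The globin gene KZS12427.1, 1 of 8 haemoglobins and sharing reads, had 6.98 to 15.8 CPM in GA, 3.43 to 7.03 in GA + EPA, 6.52 to 10.3 in CY and 14.2 to 23.1 in CY + EPA, an interaction of -2.18 that DESeq2 called, while the list's median was 0.04 and turned with single libraries, to -0.16 without replicate 1 of CY. The search for receptor genes by name found 97 tested genes, of which 5 stood at the limit (against 2.91% of all genes). Of these 5, 1 was an allatostatin A-type gene (KZS11202.1) that by its artNOG description may encode the peptide and not the receptor. The others include the GABA type B receptor subunit KZS21400.1 (-2.11) and the orphan receptor KZS16517.1 (0.60). The sulfotransferase KZS16627.1 (0.83, called by DESeq2) and the methylsterol monooxygenase KZS16626.1 (0.67), a sterol-demethylating enzyme (0.45 without replicate 1 of CY and of GA + EPA), are neighbours on 1 scaffold. An amino acid transporter of the b(0,+) type (KZS20010.1) had -0.77, cyclin B3 (KZS14567.1) 0.76, the peptidases neprilysin 5 (KZS21047.1) 0.60 and ER aminopeptidase 2 (KZS13172.1) -0.81, and malectin (KZS04876.1) -0.50. The genes annotated to splicing, KZS21857.1 and KZS02919.1, had 0.62 and 0.33, the former with a nicotinic acetylcholine receptor description in artNOG. The chaperone KZS05351.1 had 0.43, and a Gypsy integrase KZS04171.1 had -0.42.

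None of 29 cytochrome P450, 46 glycoside hydrolase, 29 ecdysteroid and juvenile hormone or 26 antioxidant and iron storage genes stood within the nominal limit in edgeR. An unadjusted p of 0.05 or less was reached by 1, 5, 2 and 2 of them, against 10.8% of all genes. Their medians were -0.11, -0.10, 0.04 and -0.01, and each turned sign when 1 library was left out, the first to 0.004 and the second to 0.02 without replicate 3 of CY + EPA. The counts of 0 became 1 for cytochrome P450 and 3 for glycoside hydrolases without replicate 1 of CY, 2 for the hormone list without replicate 1 of CY, and 1 for antioxidant genes without replicate 3 of GA + EPA. This does not show that the EPA differences were alike on the 2 foods, since the median standard error over all genes was 0.25.

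Genes matched to candidates in the study's text gave interactions on both sides. The text gives the first 4 by product and not by transcript, and several genes can carry a product name, so that these matches are not certain. The aromatic-L-amino-acid decarboxylase KZS20105.1, which makes dopamine and serotonin, had 0.76 (unadjusted p = 0.00549), with 9.96 to 11.5 CPM in GA, 11.2 to 17.4 in GA + EPA, 17.9 to 19.5 in CY and 12.8 to 15.6 in CY + EPA. The carboxylic ester hydrolase KZS07853.1 had 1.23 (edgeR adjusted p = 0.348), with 5.81 to 7.15, 5.91 to 10.6, 25 to 35.6 and 10.4 to 23.9 CPM. The THAP domain protein KZS02578.1 had -0.91, the mannanase KZS21774.1 had -0.77, and the juvenile hormone-inducible protein KZS09289.1 had 0.80. KZS07853.1, KZS21774.1 and KZS09289.1 stood outside the nominal limit. They came within it in 2, 1 and 1 of the 12 fits with 1 library left out. KZS20105.1 and KZS02578.1 stood within the limit, but stayed there in only 6 and 4 of these fits. The brain-type fatty acid-binding protein KZS18357.1 had -0.06 (95% interval -0.45 to 0.33) and the multivesicular body protein KZS03735.1 had -0.02 (-0.32 to 0.28). KZS03735.1 was lower with EPA in separated libraries on both foods, at 33.5 to 37.5 against 26.7 to 32.4 CPM on GA and 24.4 to 27.7 against 20.6 to 24.2 on CY.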

How the data were processed

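Whole-animal RNA of the pools was sequenced by the authors, and Trimmomatic, Bowtie2 and RSEM 1.2.31 were named in the submitters' processing notes. Reads were assigned to 26646 gene models of the Daphnia magna assembly 2.4. For each gene the authors deposited an estimated count (the RSEM expected count), in which reads that match several genes are divided between them, and an FPKM value. The deposited TPM values were not used here, and a deposited table holds the annotation, which matched 26645 genes. Sequences of the genes were not analysed here.

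Estimated counts of the 12 libraries were rounded, filtered with filterByExpr (14816 genes left), scaled by TMM and fitted in edgeR 4.0.16 (R 4.3.3) with 1 mean per group; the interaction was tested by quasi-likelihood F test with Benjamini-Hochberg adjustment over all genes tested, and a call needed an adjusted p of at most 0.01. CPM values are TMM-scaled. Alternatives were RLE factors, DESeq2 1.42.0, no filter, a filter of 10 counts in every library, all 15 libraries, a replicate block, limma 3.58.1 on log2(FPKM + 0.1) and log2(FPKM + 1), and each library left out. The script was tested on simulated data.

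Genes were named by these rules: the 10 smallest p in each direction at a mean of at least 1 CPM, 11 genes given in the study's text by transcript or matched to a product named there, and in each of 31 lists up to 2 genes per direction at an unadjusted p of at most 0.01 and at least 1 CPM. Lists were searched by product name. The comparison, the lists and the rules were chosen with earlier results of these data known, list exclusions were refined on product names alone, and 5 further lists and 1 further alternative (replicate 1 of CY and of GA + EPA left out together) were added after the values were seen. Genes said to share reads had non-whole counts. Some named genes had such counts without being marked. These were KZS20010.1, KZS04876.1 and KZS04171.1 (12 libraries), KZS17228.1 (11), KZS16627.1 (5) and KZS18516.1 (3). In 1 library each, so had KZS14749.1, KZS01594.1 and KZS18357.1.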

Additional observations from a re-analysis of the deposited data

How the results depend on the processing

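edgeR called 0 genes at an adjusted p of at most 0.01 under every alternative run, while DESeq2 called 44, and at an adjusted p of at most 0.1 edgeR's count was 5. The 431 genes with an unadjusted p of 0.01 or less became 321 to 610 under the other tools, filters and scales, and 239 to 811 when 1 library was left out: 286 without replicate 1 of GA, 239 without replicate 2 of GA, 285 without replicate 2 of GA + EPA, 811 without replicate 1 of CY and 270 without replicate 1 of CY + EPA. Without replicate 1 of CY and of GA + EPA together, chosen after seeing the data, the count was 743, of which 274 were among the 431. Across the 12 fits with 1 library left out, 153 of the 431 genes stood at that limit every time, 83 with the GA side higher. Of 71 named genes, 69 kept their sign under all alternatives. The exceptions lay near 0: KZS18357.1 ran from -0.153 to 0.0182 with 1 library left out, and KZS03735.1 from -0.0896 to 0.0547, and was 0.0136 without both libraries. Same-numbered libraries with and without EPA correlated in their deviations at 0.18, -0.09 and 0.02 on GA and 0.43, 0.19 and -0.25 on CY, so the numbers were not taken as pairs, and with a replicate block 0 genes were called and 399 stood at the unadjusted limit.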

Other observations

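Gene groups chosen after their values were seen, and therefore only described, stood on both sides. Of 12 neuropeptide precursors tested, 10 had the CY side higher, with a median of -0.51, and 3 had an unadjusted p of 0.01 or less (against 2.91% of all genes): diuretic hormone 31, the myoinhibitory peptide gene KZS20495.1 (-1.09) and the allatostatin A-type gene KZS11202.1 (-0.93). Myoinhibitory peptides and allatostatins quiet muscle and gland activity in insects. KZS20495.1 had 12.6, 12.6 and 12.2 CPM in GA and 5.68, 7.79 and 9.37 in GA + EPA, and 4.75, 5.92 and 5.24 in CY and 7.11, 6.43 and 7.1 in CY + EPA. KZS11202.1 had 5.25 to 6.11 CPM in GA and 2.28 to 3.61 in the other 3 groups. The name search missed KZS20504.1, a DappuITG peptide-like gene, with -0.95. The list's median was -0.28 without replicate 2 of GA, -0.30 without replicate 1 of CY and -0.29 without replicate 2 of CY + EPA. For KZS20495.1 and KZS11202.1 the 3 GA libraries lay above all others.

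Of 51 chloride and bicarbonate transporters 5 stood at that limit (against 2.91% of all genes), 4 with the CY side higher (1.11% of all genes), and the exception was the chloride channel KZS06047.1 (0.38). Of 7 protein kinase C genes 2 did, KZS11766.1 and KZS12887.1, the latter with 9.15 to 9.96 CPM in GA, 5.1 to 5.83 in GA + EPA, 1.38 to 1.86 in CY and 1.75 to 2.18 in CY + EPA, an interaction of -1.03. Genes found by the artNOG description rather than the product name gave the same signs for yolk and cuticle: 35 of 36 vitellogenin genes were positive, with a median of 0.77, and 69 of 81 cuticle protein genes, with a median of 0.96. These lists overlap those by product name.

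Some genes at the limit lay beside each other on the scaffolds. Of the 348 such genes with a tested neighbour, 38 (10.9%) were next to another of the same sign, against 387 of 12109 of all genes tested (3.20%), and no test was made, because neighbours are often copies that share sequence. They include 2 cuticle protein genes on scaffold LRGB01000311.1, KZS19772.1 (3.41) and KZS19773.1 (3.73), 2 genes annotated as Msta, KZS11712.1 (-1.01) and KZS11713.1 (-1.16), the globins KZS12427.1 (-2.18) and KZS12428.1 (-0.41), and the retinoid- and fatty acid-binding glycoprotein KZS06116.1 with its neighbour KZS06117.1 (2.16). The last is annotated as Gudu by product name and has an acyl-coenzyme A oxidase description only in artNOG.

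In the CRY libraries, which took no part in the interaction, leading genes and a candidate matched to the study's text stood at different places relative to the groups. With all 15 libraries scaled together, sestrin KZS01477.1 had 29.8, 30.5 and 32.6 CPM on CRY beside a mean of 58.2 in GA + EPA and 28.8 in GA. The haem peroxidase KZS15908.1 had 291, 310 and 322 CPM on CRY beside 318 in CY, 468 in CY + EPA and 146 in GA + EPA. The carboxylic ester hydrolase KZS07853.1 had 45.7, 50 and 53.1 CPM on CRY, above the group means of 6.45 to 31.7 in the other groups.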
